A study of Sminthopsis crassicaudata with 9 samples.

Results

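The 64 cytosolic ribosomal protein genes of the fat-tailed dunnart (*Sminthopsis crassicaudata*, a small carnivorous marsupial) were examined in the face on the day of birth. They were chosen by name alone, as every gene model of the count table whose symbol is RPL or RPS followed by a number and at most 1 letter, or RPLP0, RPLP1, RPLP2 or RPSA. The rule took 64 of 21703 gene models, 26 for the small (40S) and 38 for the large (60S) ribosomal subunit, lying on 36 of the 273 scaffolds that carry a gene. No measured value entered the rule, though it was chosen with earlier results of these data known. Facial tissue of pouch young under 24 hours old was used for ChIP-seq of H3K4me3 and H3K27ac, with input DNA, in 2 pools of 26 and 27 heads by the sample labels, a sum that differs from the number of young given in the study's methods. RNA came from the same tissue at postnatal day 0 in 3 libraries, called FP1, FP2 and FP3, each a pool of 2 young. Tongue, neural tube and eye primordia had been taken out before extraction. Every sample had the same tissue, age and condition, no strain or genotype was given, and so no group stood against another and no test was run.

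Each ribosome is built from ribosomal RNA and a fixed set of proteins, most of them present once per particle. The small subunit holds the messenger RNA at its decoding site, and the large subunit joins amino acids and releases the chain through an exit tunnel. Cells that grow and divide need ribosomes in bulk, and ribosomal protein messages are among the most abundant in most tissues. In vertebrates these messages begin with a pyrimidine tract, the 5′ TOP motif, which lets mTOR signaling set their translation together. The genes are short and their promoters carry H3K4me3, a mark of active transcription starts, and H3K27ac, an acetylation found at promoters and enhancers in use. Loss of a single copy of many of them causes Diamond-Blackfan anemia in humans, in which some patients have cleft palate or other facial defects.

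The gene models were those of the Tasmanian devil, lifted by the authors to their dunnart assembly, and this bears on several members. RefSeq's own annotation of a dunnart assembly holds 74 symbols under the same rule, of which 63 were shared with the 64 models here. RPL17, RPL23, RPL28, RPL34, RPL35A, RPL39, RPS9, RPS10, RPS18 and RPS23 were not analysed here, nor were RPLP1, RPL10L and RPL39L, while RPL3 has no entry of that symbol in RefSeq. Among 63 members, 61 had at least 1 of their 3 nearest neighbours on either side in common with RefSeq, among genes named in both annotations. RPL19 had none in common. It (scaffold 21, 31279675 to 31280136, 2 exons of 218 bases in all) lay between ARFGEF2 and RWDD3, whereas RefSeq has it between FBXO47 and MED1. The RPS27 model (scaffold 4, 65613881 to 65613890) is 1 exon of 10 bases. Values of RPL19 and RPS27 are given as those of the models, and whether they stand for the functional genes was not tested. Of the 64 models, 61 have between 3 and 10 exons, and without RPL3L, a muscle paralog described below, these leave 60 core genes.

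The libraries held 17419099 counts in FP1, 16358621 in FP2 and 16096971 in FP3, of which the 64 genes took 1051547, 616661 and 796539. As shares these were 6.04%, 3.77% and 4.95%, or 4.92% ± 1.13 (SD, n = 3), for 0.295% of the usable models. On the TPM scale (counts divided by exon length and scaled so that every library has the same sum) the share was 16.0% in FP1, 11.1% in FP2 and 13.3% in FP3, or 13.5% ± 2.47. The share in FP1 was 1.44 times that in FP2, and the values below carry that difference between libraries. In pooled whole tissue, fewer cells of a type and less RNA per cell cannot be told apart.

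Every one of the 64 models was expressed, at over 1 TPM in all 3 libraries, as were 56.5% of all models. For the RPS27 model this rests on 5, 1 and 5 counts over 10 bases. A mean of 100 TPM or more was reached by 62 members, against 6.71% of all models, and a mean of 1000 TPM or more by 55, against 0.668%. The median member had 2138 TPM, with library medians of 2519 in FP1, 1734 in FP2 and 2096 in FP3 (SD 393). The median place of a member among all models ordered by TPM was 72.5. Of the 100 models of highest TPM 49 were members, and of the first 200 members made up 59. Levels were close to each other: 53 members lay between 1000 and 4000 TPM, and the upper quartile was 1.48 times the lower.

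**Figure D1:**
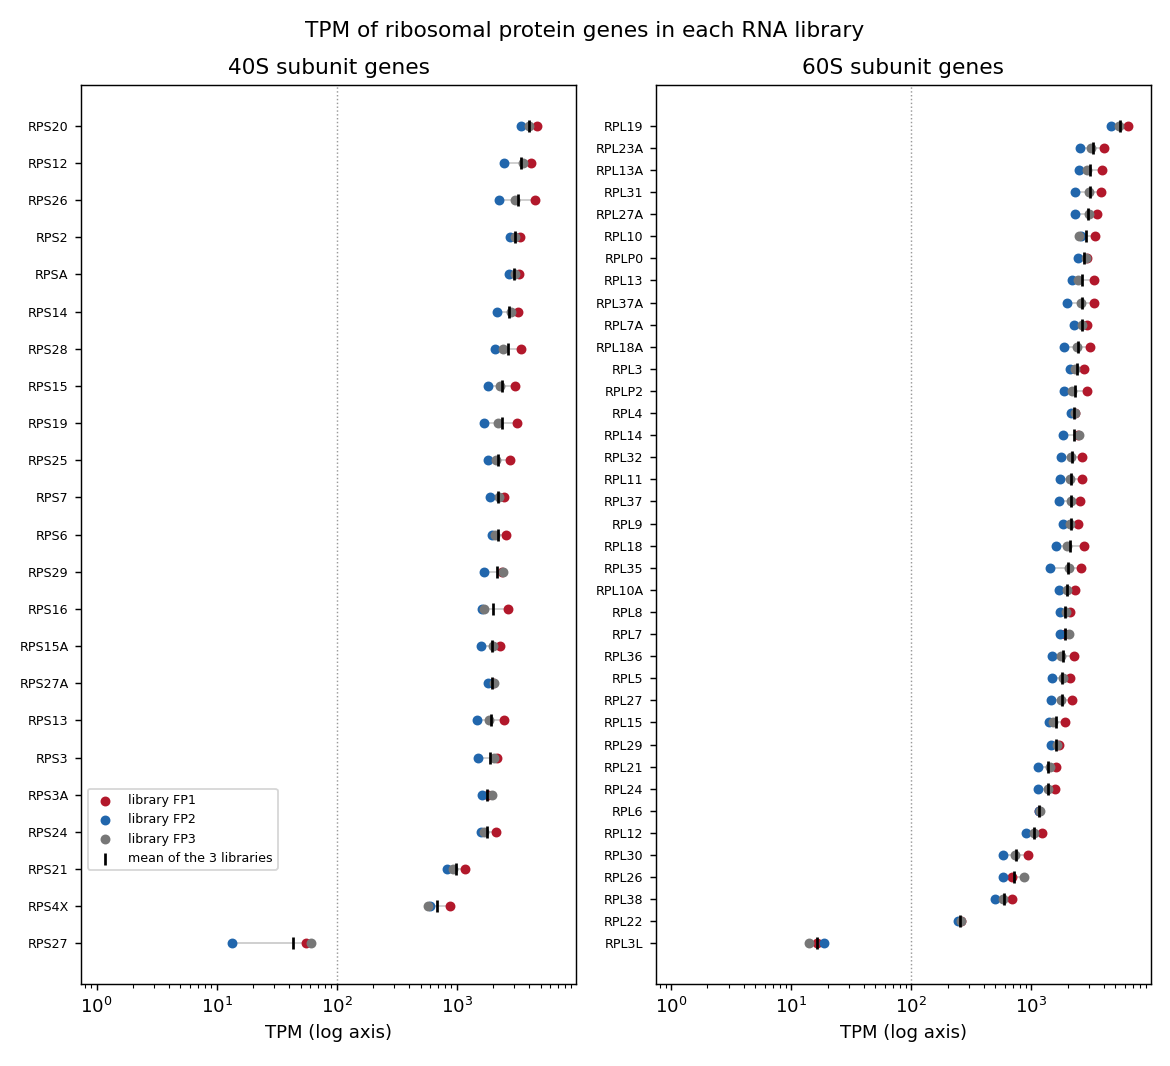
TPM (log axis) of the ribosomal protein genes reported here in libraries FP1, FP2 and FP3 (points) with the mean (tick), 40S genes on the left and 60S genes on the right, and a dotted line at 100 TPM. Most genes lie between 1000 and 4000 TPM with FP1 highest and FP2 lowest, and RPS27 and RPL3L stand apart below.

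Most neighbours in the order of levels did not differ beyond the spread between libraries, which includes a shift common to nearly all members. Of the 63 steps from one member to the next, 2 exceeded the summed SD of both and 12 kept their direction in all 3 libraries. Over all 2016 pairs of members, 1709 (84.8%) had the same order in each library. Spearman's rho of the members' TPM between libraries was 0.907 for FP1 and FP2, 0.933 for FP1 and FP3 and 0.959 for FP2 and FP3. These are descriptions over 64 genes, which share the lengths of their models in every library. The coefficient of variation over libraries had a median of 18.5%. Once each library was divided by its own median over the members, the median came to 6.43%, and 45 members were under 10%.

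Among the 40S genes the median was 2212 TPM (SD of library medians 407). RPS20, a protein of the subunit's head, led them with 4653, 3402 and 3987 TPM in FP1, FP2 and FP3 (mean 4014 ± 626, SD, n = 3). RPS12 had 4125, 2492 and 3585 TPM. Both were lowest in FP2 and highest in FP1, and their ranges overlapped, with RPS20 the higher in each library. RPS26, which lines the channel where the messenger RNA leaves, had the widest spread of the whole models, with 4485, 2239 and 3043 TPM (coefficient of variation 35.0%). RPS2, which sits at the entry for messenger RNA, varied less, with 3346, 2760 and 3040 TPM. RPSA, known also as the laminin receptor, had 3287, 2706 and 3037 TPM, and its mean of 27083 counts was behind RPL4 and RPL3 alone among the members.

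The remaining 40S genes with known roles of their own fell around the middle of the list. RPS19, the first gene found in Diamond-Blackfan anemia, had 3193, 1691 and 2221 TPM (mean 2368 ± 762). RPS6, the substrate of S6 kinase downstream of mTOR, had 2579, 1982 and 2073 TPM. RPS27A, which is made as a fusion to ubiquitin, had 2011, 1816 and 2037 TPM. It was among the steadiest, at 1955 ± 121 TPM, and FP3 rather than FP1 was its highest library. RPS28 had 3451, 2088 and 2438 TPM, and RPS25 had 2762, 1818 and 2106 TPM. RPS7 had 2477, 1888 and 2271 TPM. RPS16, whose tail reaches the transfer RNA, had 2676, 1618 and 1695 TPM. All 4 were highest in FP1 and lowest in FP2. RPS3, a protein of the entry channel, had 2156, 1516 and 2042 TPM. RPS3A had 1823, 1633 and 1956 TPM, highest in FP3.

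Below 1000 TPM the 40S genes were few. RPS21 had 1177, 833 and 931 TPM (mean 981 ± 177). RPS4X, X-linked in humans, where a Y-linked copy also exists, had 874, 595 and 572 TPM (mean 680 ± 168), with FP2 and FP3 alike and FP1 above them. The single-exon model of RPS27 was lower still. Its 10 bases drew 5, 1 and 5 counts, or 55.1, 13.4 and 61.4 TPM. With so few counts, the level of RPS27 in the dunnart face cannot be read from this model.

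Among the 60S genes the median was 2120 TPM (SD of library medians 360). The model named RPL19 stood first of all members, with 6375, 4587 and 5352 TPM (mean 5438 ± 897), but TPM divides by its 218 bases, and by mean count it was in place 44 of 64. RPL23A, which lies at the mouth of the exit tunnel, had 4022, 2561 and 3129 TPM. RPL13A had 3836, 2493 and 2903 TPM. RPL31, also beside the tunnel mouth, had 3797, 2327 and 3035 TPM. These 3 had nearly equal means between 3053 and 3238 TPM, closer than their SD over libraries. RPL23A was still the highest of them in each library. RPL10, one of the last proteins to join the subunit in the cytoplasm, had 3413, 2601 and 2490 TPM, with FP1 above the other libraries. The acidic stalk that recruits translation factors was represented by RPLP0 and RPLP2. RPLP0 had 2889, 2442 and 2853 TPM (mean 2728 ± 248). RPLP2 had 2910, 1855 and 2176 TPM (mean 2314 ± 541). The ranges of these stalk genes overlapped.

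RPL5 and RPL11, which bind 5S ribosomal RNA and restrain MDM2 when ribosome assembly fails, were close to the middle. RPL5 had 2111, 1477 and 1823 TPM (mean 1803 ± 317). RPL11 had 2617, 1739 and 2086 TPM (mean 2147 ± 442). Their ranges overlapped, with RPL11 the higher in each library. RPL4, which reaches into the exit tunnel, had 2307, 2144 and 2315 TPM. By mean count, RPL4 was the highest of all members, at 28781, ahead of RPL3, a protein of the peptidyl transferase center, at 28059. RPL6 had 1153, 1150 and 1182 TPM and was the steadiest member, with a coefficient of variation of 1.51%. RPL21 had 1593, 1144 and 1416 TPM.

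At the low end of the 60S genes, RPL12, at the base of the stalk, had 1231, 901 and 1044 TPM. RPL30 had 934, 575 and 730 TPM. RPL26 had 684, 581 and 866 TPM and was the only whole model among the RPL and RPS genes, RPL3L aside, to keep a coefficient of variation over 20% after each library was divided by its median. FP3 was its highest library. RPL38, loss of which in the mouse alters the axial skeleton and the translation of Hox messages, had 693, 494 and 577 TPM (mean 588 ± 99.6). RPL22 had 259, 246 and 261 TPM (mean 255 ± 7.83), the lowest of the whole core genes and on the longest model, of 2272 bases. RPL22L1, its paralog outside the naming rule, had 448, 372 and 484 TPM, above RPL22 in every library.

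RPL3L is the paralog of RPL3 that replaces it in skeletal and heart muscle of mammals. It had 16.4, 18.8 and 14.1 TPM (mean 16.4 ± 2.34), the lowest of the 64, on a model of 10 exons and 1422 bases, the same length as that of RPL3. RPL3 itself had 2730, 2081 and 2321 TPM. The libraries held muscle transcripts, with ACTA1 (skeletal alpha-actin) at 4083, 3213 and 4435 TPM and the muscle regulator MYOD1 at 226, 244 and 313 TPM. RPL3L was the single member with more TPM in FP2 than in FP1, an order that turned under TMM scaling. The 60 core genes ran from 255 TPM (RPL22) to 4014 TPM (RPS20), a ratio of 15.7.

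The 20 genes listed for Diamond-Blackfan anemia, 18 of which had a model, had a median of 2063 TPM, against 2138 TPM over all members. Genes that belong to the ribosome or resemble its proteins but fall outside the naming rule divided into abundant and scarce ones. FAU, which encodes RPS30 behind a ubiquitin-like domain, had 2329, 1360 and 1719 TPM. RACK1, a scaffold protein on the 40S head, had 2557, 2108 and 2606 TPM. Both lay within the range of the members. The paralogs RPL22L1, RPL26L1, RPS27L and RPL7L1 had means of 434, 388, 102 and 39.9 TPM.

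Other lists of the protein synthesis machinery had lower medians. The 12 found of 13 listed translation genes with 5′ TOP messages had a median of 620 TPM, led by TPT1 (4858 ± 282) and EEF1A1 (2566 ± 296). The 24 found of 25 ribosome biogenesis factors had a median of 70.8 TPM, and NCL (nucleolin) was their highest at 659 ± 56.8 TPM. The 6 found of 8 genes for ribosomal RNA transcription had a median of 17.0 TPM. They include genes of Treacher Collins syndrome, a human disorder of facial growth, with TCOF1 at 15.9 ± 2.85, POLR1C at 62.2 ± 10.8 and POLR1D at 18.2 ± 3.52 TPM. The 65 mitochondrial ribosomal protein genes had a median of 71.2 TPM and a range of 18.7 to 177. The 35 proteasome subunit genes had a median of 176 TPM.

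The difference between libraries was common to nearly all members. TPM ran FP1, FP3, FP2 from high to low in 51 of 64, an order found in 5.47% of all models, 16.2% of other genes of 100 TPM or more and 21.1% of the 90 other genes of 1000 TPM or more. FP1 was above FP2 in 63, all but RPL3L, and FP2 was the lowest library in 61. The median log2 ratio of FP1 over FP2 was 0.51 over the members, against -0.27 over all models, 0.02 over the 1393 other genes of 100 TPM or more and 0.15 over those of 1000 TPM or more. With TMM factors in place of TPM the medians over members, all models and other genes of 100 TPM or more were 0.76, -0.01 and 0.27. The change of scaling moves every gene of a library by the same factor, so the distance between these sets could not change. Under TMM scaling FP1 was above FP2 in 64 members and the order FP1, FP3, FP2 was seen in 49, against 13.5% of all models. Model length moved with this ratio. In the members of 500 to 1000 bases its median was 0.58 (40 genes), against 0.34 in 256 other genes of that length and 100 TPM or more. In those of 1000 to 2000 bases it was 0.34 (12 genes), against 0.07 in 484 others. RPL22, the 1 member of over 2000 bases, had 0.07, against -0.13 in 477 others. Among the members Spearman's rho between length and log2 ratio was -0.609 (n = 64, all from the same libraries). RNA integrity and library insert sizes were not used here, and the part of length in the difference was not tested.

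**Figure D2:**
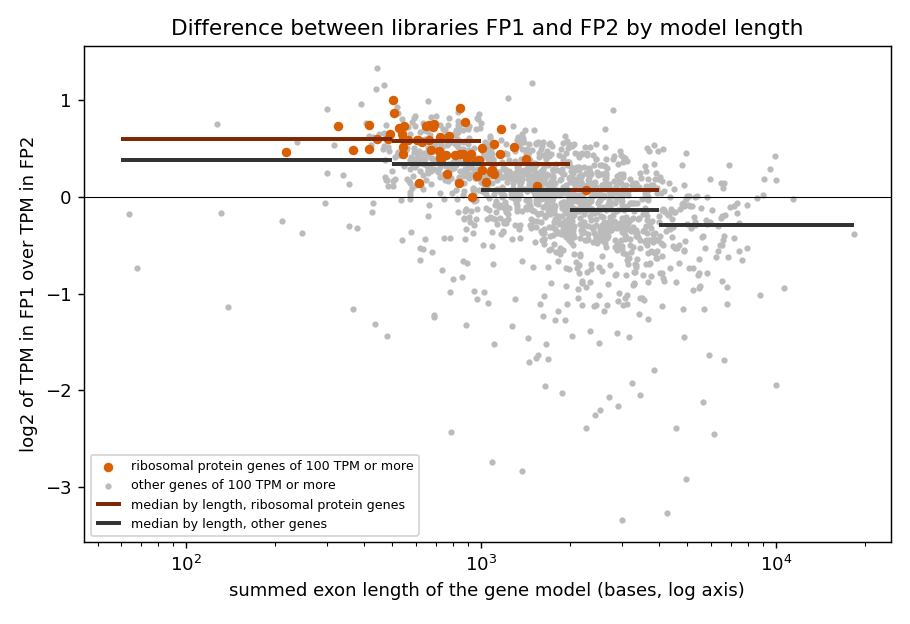
Log2 of TPM in FP1 over TPM in FP2 against summed exon length (log axis) for ribosomal protein genes (orange) and other genes (gray) of 100 TPM or more, with medians by length bin as lines. Ratios decline with length in both sets, and the medians of the ribosomal protein genes lie above those of the other genes in every bin they share.

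In other lists, FP1, FP3, FP2 was the order of TPM in 15 of 65 mitochondrial ribosomal protein genes, 5 of 35 proteasome genes and 2 of 12 translation genes with 5′ TOP messages. Their median log2 ratios of FP1 over FP2 were 0.15, -0.02 and 0.06. Cell type markers also varied between libraries. The epithelial markers found (5 of 6, all expressed) had summed TPM of 506 in FP1, 616 in FP2 and 589 in FP3. KRT8 held much of that sum (290, 294 and 282 TPM), and the list's median was 43.1, 85.6 and 81.9 TPM. The 3 cartilage markers, all found, had summed TPM of 49.5, 116 and 46.2. COL2A1 held much of that sum (36.4, 90.9 and 27.6 TPM). The cartilage list's median was 12.1, 19.0 and 17.7 TPM, and ACAN was under 1 TPM in FP1 and FP3. The 4 muscle markers, all found, had summed TPM of 5641, 4721 and 6320. All 6 facial mesenchyme markers were expressed, with a summed TPM of 606, 577 and 456. TWIST1 held much of that sum (359, 285 and 217 TPM), whereas the list's median was highest in FP2, at 53.4, 70.5 and 47.4 TPM. The 3 erythroid markers had summed TPM of 171, 287 and 207. ALAS2 held much of that sum (144, 264 and 177 TPM). The erythroid list's median was instead highest in FP1, at 23.8, 20.1 and 21.1 TPM. The endothelial markers found (2 of 3) had summed TPM of 47.3, 43.2 and 35.5. Of the other organ markers 2 of 4 were found, NKX2-1 at 0 TPM in each library and PAX8 at 0.171 TPM. The part of cell composition in the order of the ribosomal protein genes was not tested.

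At the promoters, H3K4me3 was present in both pools within 3 kb of the TSS (transcription start site, the outermost exon end) of 61 of 64 members, against 71.6% of all models. A peak counted where a replicate 1 peak shared at least 50% of either length with a replicate 2 peak at q under 0.05. H3K27ac was present at 62 of 64, against 76.1%, and both marks at 61, against 70.2%. Most genes of high level had these marks. As shares, 95.3% of members had H3K4me3 and 96.9% had H3K27ac, against 94.7% and 96.1% of other genes of 100 TPM or more, and 95.4% for either mark in mitochondrial ribosomal protein genes. RPL19 and RPL3L were among the models without H3K4me3. RPL19 had its nearest reproducible H3K4me3 peak 314 kb away and its nearest H3K27ac peak 78.8 kb away. RPL3L had its nearest H3K4me3 peak at 3.84 kb, at a fold enrichment of 4.11. It had 2 H3K27ac peaks within 3 kb, one of 6.35 over the TSS and the stronger, of 6.91, beginning 2149 bp from it. RPL3L lies 10.2 kb beyond the end of RPS2 on the same strand. All 60 core genes had an H3K4me3 peak over the TSS itself, which 58.0% of all models and 1224 of 1393 other genes of 100 TPM or more had.

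Fold enrichment over input at the strongest of these peaks had a median of 69.6 for H3K4me3, with 67.9 in replicate 1 and 75.5 in replicate 2. The median of all other models with a peak was 42.3, and that of other genes of 100 TPM or more was 63.0. It was 72.9 in translation genes with 5′ TOP messages, 72.8 in proteasome subunit genes and 57.6 in mitochondrial ribosomal protein genes. The quartiles of the members were 62.7 and 80.7. For H3K27ac the median was 40.1 over members, with 44.2 in replicate 1 and 36.3 in replicate 2, against 22.7 over all other models and 36.6 over other genes of 100 TPM or more. The same 3 lists had 43.7, 33.0 and 34.7. H3K4me3 was the more enriched mark at 60 of 61 members, by a median ratio of 1.76 (range 0.920 to 3.04), and RPS16 was the exception. Different antibodies were used for the marks, so this ratio does not compare amounts of modified histone.

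The strongest H3K4me3 was at RPS3, with 101 in replicate 1 and 112 in replicate 2, then RPS28 (92.0 and 114), RPLP0 (86.8 and 116), RPL6 (93.8 and 109) and RPL13A (92.0 and 109). The first 5 did not part from each other beyond the gap between pools. The weakest was beside the RPS27 model (42.6 and 29.6), followed by RPL21 (48.1 and 36.2), RPS4X (32.6 and 52.2) and RPS7 (33.5 and 55.6). For these genes the pools disagreed on the order. The H3K4me3 peak counted for RPS27 ended 434 bp upstream of its TSS and covered the start of another model, which has no symbol. Its H3K27ac peak ended 148 bp upstream and covered the same start. Over 61 members replicate 2 was the higher in 43 (70.5%), against 71.8% of all models with a peak, and Spearman's rho between the pools was 0.540.

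The strongest H3K27ac was at RPL4 (73.4 in replicate 1 and 73.0 in replicate 2), RPS3A (82.9 and 62.8), RPS16 (74.5 and 69.8), RPL5 (87.1 and 55.7) and RPS3 (72.6 and 62.4). RPL3L was the weakest (4.96 and 8.85), followed by RPS4X (15.1 and 17.1), RPS12 (22.0 and 24.8), RPL21 (31.6 and 15.4) and RPS25 (27.4 and 20.1). RPS4X and RPL21 were thus among the 5 weakest for both marks, and RPS3 among the 5 strongest for both. Replicate 2 was the higher in 10 of 62 members (16.1%), against 24.0% of other genes of 100 TPM or more and 32.6% of all models with a peak, and Spearman's rho between the pools was 0.696. Between the marks it was 0.532 over 61 members, which share pools and input.

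Within the list, enrichment and RNA level had low rank correlations. Spearman's rho of TPM with fold enrichment was 0.0900 for H3K4me3 (n = 61) and 0.147 for H3K27ac (n = 62), and 0.0437 and 0.0787 over the 60 whole core genes. RPS12 had the third highest TPM of the members and an H3K27ac enrichment of 23.4. RPL22, lowest of the core at 255 TPM, had 77.3 for H3K4me3 and 32.2 for H3K27ac. RPL6, at 1161 TPM, had 101 for H3K4me3. The 40S and 60S genes had H3K4me3 medians of 72.4 and 68.3 and H3K27ac medians of 41.7 and 38.6, with quartiles that overlapped.

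**Figure D3:**
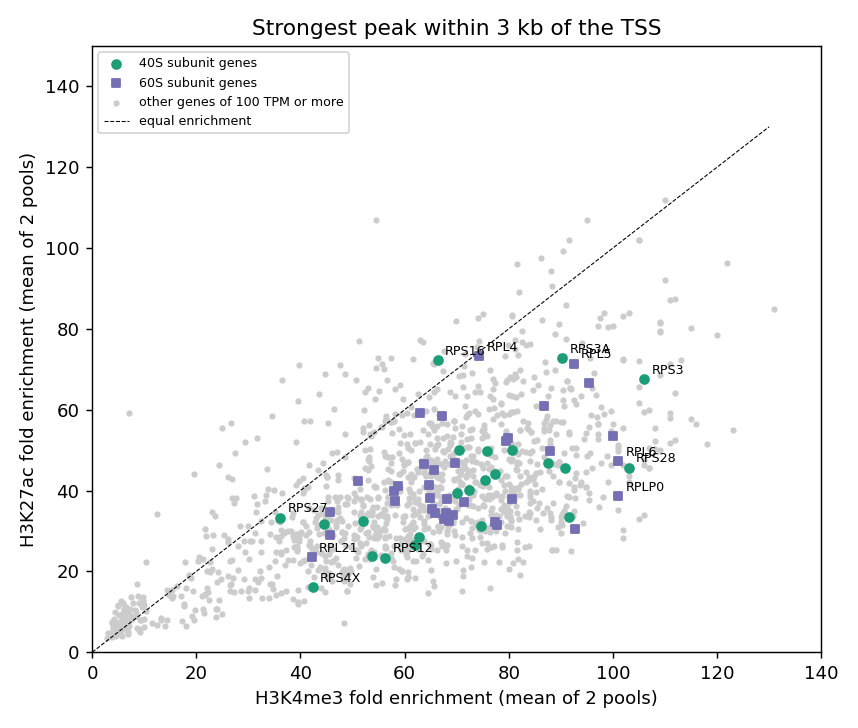
Fold enrichment of H3K27ac against that of H3K4me3 at the strongest peak within 3 kb of the TSS (means of 2 pools) for 40S genes (circles), 60S genes (squares) and other genes of 100 TPM or more (gray), with a dashed line of equal enrichment. Only genes with both marks there are drawn, which leaves out RPL19 and RPL3L. The ribosomal protein genes drawn lie above 36 for H3K4me3, the lowest being the peak beside the RPS27 model, and RPS16 is the one above the line. The cluster of other genes under 20 for both marks holds none of those drawn.

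The peaks reached further into the gene than upstream of it. Over the 60 H3K4me3 peaks that covered the TSS, the median upstream edge was at -1010 bp and the median downstream edge at 1766 bp, and the downstream reach was the longer in 45. For the 58 such H3K27ac peaks the edges were at -1064 and 1276 bp, with 41 longer downstream. Edges were measured for the members only, so whether other genes have the same reach was not tested. Summits lay at a median of 395 bp and 373 bp downstream of the TSS for H3K4me3 and H3K27ac, on the downstream side in 54 of 61 and 50 of 62 members. These were 88.5% and 80.6% of members with a peak, against 81.9% and 70.7% of other genes of 100 TPM or more and 73.7% and 68.2% of all models. A summit within 1 kb of the TSS was found in 58 members for H3K4me3 (95.1%, against 75.4% of other models with a peak) and in 56 for H3K27ac (90.3%, against 74.0%). RPS16 and RPS27 were among those beyond 1 kb for H3K4me3. At RPL35 the strongest H3K27ac lay off the TSS, upstream of it, at a peak that covers the start of ARPC5L. The TSS is that of the lifted model, so its error enters each of these distances.

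**Figure D4:**
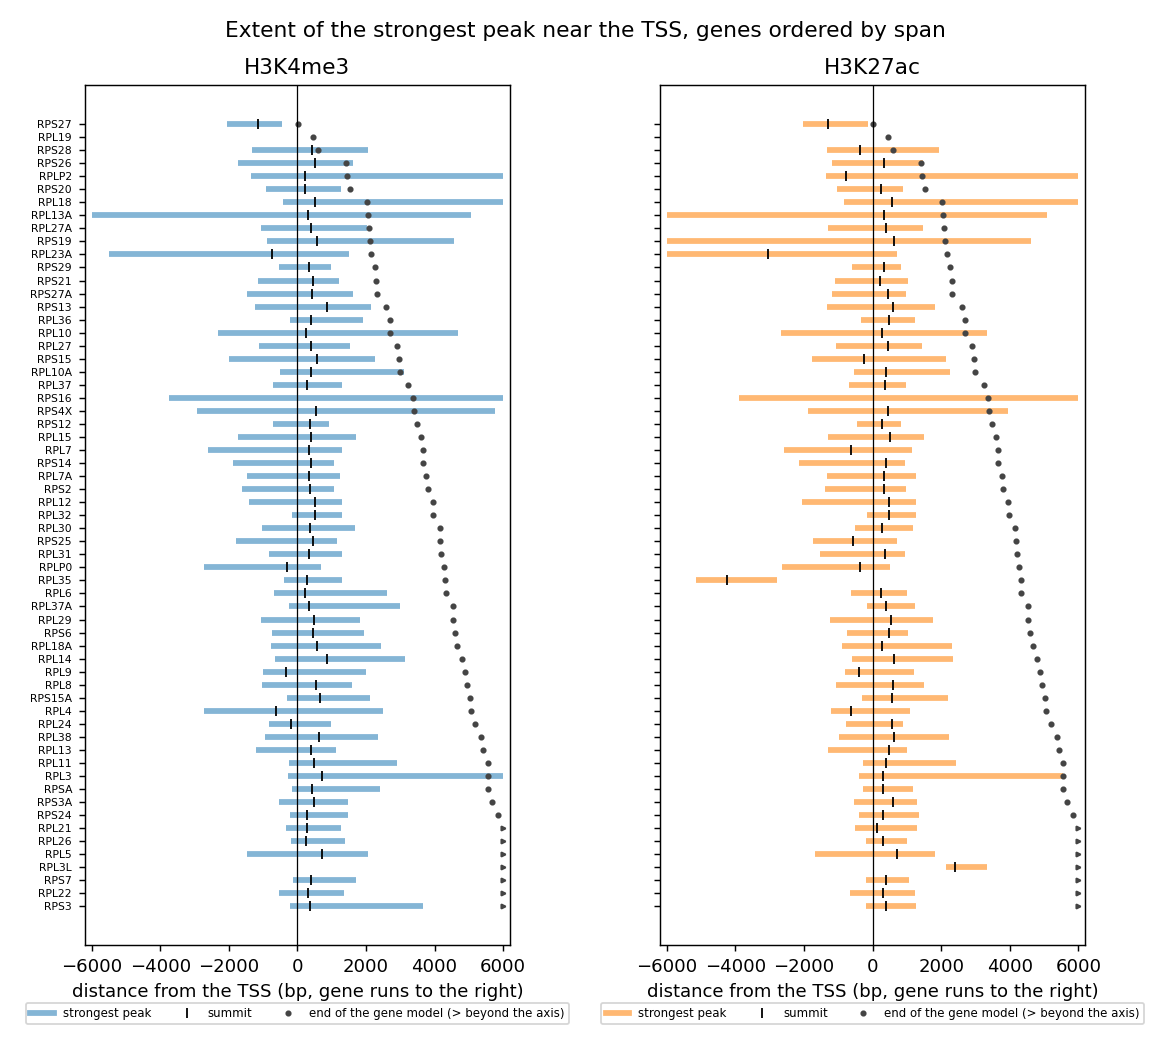
Extent of the strongest H3K4me3 (left) and H3K27ac (right) peak within 3 kb of the TSS of the members reported here, in bp from the TSS along the direction of transcription, clipped at 6000 bp on either side, with the summit as a tick and the end of the gene model as a dot. Genes run from the shortest span at the top to the longest at the bottom, and most summits stand just right of the TSS.

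The strongest peaks had median widths of 2996 bp for H3K4me3 and 2494 bp for H3K27ac. These medians were 3326 and 3056 bp in other genes of 100 TPM or more, and 2464 and 2214 bp over all other models. A width over 5 kb was found in 12 and 10 members, and was not counted in other genes. At RPS16 the strongest peak was 39.0 kb and 41.6 kb wide and covered 6 other TSSs, among them PAF1, MED29, PLEKHG2 and ZFP36. Its summits lay 14291 and 25128 bp downstream of the RPS16 TSS. The enrichment given for RPS16 is therefore that of a domain shared with its neighbours. RPL13A lay in an H3K4me3 peak of 17.2 kb over 8 other TSSs, of which 4 belong to models nested inside RPL13A. At RPL23A the H3K27ac peak measured 19.1 kb. In 28 members the strongest H3K4me3 peak covered another TSS, and in 29 the strongest H3K27ac peak did. These counts include members, such as RPSA and RPL32 for H3K4me3, where the only other TSS is that of a model nested inside them. The share among other genes was not counted.

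The genes were short, and the marks covered much of their bodies. A member spanned 3.87 kb at the median, against 16.3 kb for all other models, and 50 of 64 had under 1 kb of exon, with a median of 725 bases against 2195. H3K4me3 covered a median of 53.2% of the span, against 5.27% over all other models and 39.1% over other genes of 100 TPM or more. H3K27ac covered 43.0%, against 7.86% and 40.5%. The whole span lay under H3K4me3 in 13 members (20.3%, against 16.7% of other genes of 100 TPM or more and 6.67% of all models) and under H3K27ac in 11 (17.2%, against 16.0% and 6.93%). Among those covered from end to end by both marks were RPS4X, RPS16, RPS19, RPS26, RPS28, RPL3, RPL10, RPL13A, RPL18 and RPLP2. At the other end, RPS7, with a span of 11.2 kb, had 15.2% and 9.38% of it covered. RPS3, the longest at 16.9 kb, had 30.4% and 29.3%. RPL19 and RPS27 had none of either mark in their bodies.

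A gene on the other strand began within 1 kb upstream of 12 members, head to head with them (18.8%, against 10.6% of other genes of 100 TPM or more and 7.82% of all models). Of these 8 were 40S genes (RPS2, RPS12, RPS16, RPS20, RPS25, RPS26, RPS27A and RPS28) and 4 were 60S genes (RPL4, RPL7A, RPL9 and RPLP2). As shares these were 30.8% of the 40S and 10.5% of the 60S genes. Such a partner was also found for 16.9% of mitochondrial ribosomal protein genes, 20.8% of ribosome biogenesis factors and 16.7% of the 12 translation genes with 5′ TOP messages. Among proteasome subunit genes it was 8.57%. The start sites lay 5 to 573 bp apart, and an H3K4me3 peak covered both in all 12 pairs. RNA from the sides was unequal in the 8 pairs whose partner has a symbol. RPS12 had 3401 TPM, against 5.64, 6.63 and 2.52 TPM in FP1, FP2 and FP3 for SLC18B1, 115 bp away. RPL7A had 2615 TPM and its partner MED22, a Mediator subunit 5 bp away, had 15.0 ± 1.56 TPM. RPS27A had 1955 TPM, against 0.0389, 0 and 0.0434 TPM for CLHC1, 120 bp away, whose start lay under the same H3K4me3 peak. The closest levels were those of RPS28 and NDUFA7, a subunit of respiratory complex I, at 2659 and 306 ± 54.8 TPM, and of RPL4 and ZWILCH, a kinetochore protein, at 2255 and 240 ± 37.7 TPM. PIDD1 had 28.6 TPM beside RPLP2, TRAPPC4 had 95.4 beside RPS25 and LIAS had 38.9 beside RPL9. All 8 partners were thus below the ribosomal protein gene, the nearest by a ratio of 8.68. A mean of 1000 TPM or more was reached by 0.668% of all models, and partners of other genes of that level were not compared.

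Short models lay within many of the genes. In 20 members, 6 of the 40S and 14 of the 60S, the span held at least 1 other model of under 300 bases on the same strand, as in 0.788% of all models. No other kind of same-strand model overlapped a member, so the same 20 members make up the count with any same-strand overlap, against 4.07% of all models. There were 38 of these, each 1 exon of 63 to 154 bases with no symbol, and 37 shared no base with the exons of the member, so they lay in its introns. RPL4 held 5 of them, RPL7A and RPL13A held 4 each, and RPL12, RPL13, RPL21, RPL23A, RPL27A, RPS3, RPS12 and RPSA held 2 each. Introns of ribosomal protein genes are known in mammals as hosts of small nucleolar RNAs, but the identity of these models is not given in the sources used here. On the other strand a model overlapped 4 members, against 15.6% of all models, and the stranded counting keeps those reads apart. Counts of the nested models were small, over 10 in any library for 22 of the 38 and at most 172, for the model within RPL10 (172, 100 and 54). Libraries were made from messenger RNA, and reads of unspliced host transcripts cannot be told apart from reads of the nested models.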

How the data were processed

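Members and lists were chosen with earlier results of these data known, and the values are a description. ChIP-seq peaks come from MACS2 (2.1.1), run by the authors on each pool against its own input, after trimming (cutadapt 1.9.1), alignment to their dunnart assembly (Bowtie2 2.3.5.1), filtering (SAMtools 1.9) and removal of duplicates (Picard 2.23.1). The deposited fold enrichment over input is a ratio, and the deposited q-values are on the -log10 scale. The deposited display score was not used. For RNA the authors used Trimmomatic (0.39), HISAT2 (2.21) and featureCounts of Subread (2.0.1), and the deposited counts are unscaled counts per gene over exons of the lifted models, set to reversely stranded pairs. Secondary alignments were filtered out, and the counting options given in the study's methods name no setting for reads that map to several places, so genes with near-identical pseudogene copies are uncertain. ChIP depth is unknown from peak lists.

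TPM was computed over 21692 models, leaving out 11 genes on 2 broken lines. Peaks within 3 kb of the TSS were measured to their edge, and the strongest gave the enrichment, as the mean of both pools. Gene bodies run over the span of the model. RefSeq's table, of another assembly, served for names and neighbours only. Values per library are given for the 10 members of highest and of lowest TPM, those without H3K4me3 near the TSS, the 5 strongest and 5 weakest of each mark, the models with 1 exon and a fixed set of genes with known roles. A few genes under this rule are not reported here, though counts and medians include them. The SD over 3 libraries, which may be technical in part, is the precision given. Alternatives were another scaling, q limits of 0.01 and 1e-10, a window of 1 kb, stricter overlap and each library or pool left out. Computation ran in Python (3.11.15) with scipy (1.17.1), pandas (2.3.3), matplotlib (3.10.9) and numpy (2.4.6), with edgeR (4.0.16) in R (4.3.3) for scaling factors only, and the computations were tested on simulated data.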

Additional observations from a re-analysis of the deposited data

How the results depend on the processing

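All 64 members were over 1 TPM under every scaling, also at a limit of 10 TPM, and with any library left out. Neither limit can sort the RPS27 model, where 1 count in FP2 gave 13.4 TPM. Over models with a symbol alone, the median member had 2567 TPM, the share of all TPM was 16.2% and the median place was 60.5. RPKM with TMM factors gave a median of 1072, on another unit, with the same place. As raw counts with no length scaling the share was 4.92%. With each library left out, the median TPM ran from 1941 to 2337, the share from 12.2% to 14.7% and the place from 68.5 to 75.0. Across q limits, overlaps, windows and single pools, 60 to 62 members had H3K4me3, 59 to 63 had H3K27ac and 57 to 62 had both. With either pool left out, median enrichment ran from 67.9 to 75.4 for H3K4me3 and from 36.6 to 44.2 for H3K27ac, and the covered share of the gene body from 53.2% to 55.2% and from 43.8% to 44.2%. That share was 43.7% and 33.0% at q under 1e-10, where fewer peaks remain, and 51.0% and 35.8% with 50% of both peaks shared. FP1 was above FP2 in 63 members by TPM, 62 with TPM over models with a symbol, and 64 with TMM or as CPM. The order turned for RPL3L under TMM. The median log2 ratio of FP1 over FP2 in other genes of 100 TPM or more was 0.02 by TPM and -0.02 with TPM over models with a symbol, while that of the members was above 0 under each scaling (0.47 to 0.76). No paired analysis was possible because the results come from no test and compare no groups. The 10 bases of RPS27 and the place of RPL19 limit their values, and start sites are those of lifted models.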
